A study of Mus musculus with 8 samples.

Results

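The interferon-induced GTPases are a set of 9 genes: Igtp, Iigp1, Irgm1, Irgm2 and Ifi47 of the immunity-related GTPase (IRG) family, Gbp2, Gbp3 and Gbp4 of the guanylate-binding protein (GBP) family, and Mx1. The set was chosen by how these genes differed between the groups on these same arrays, so those differences are given below as a description and carry no test. RNA came from LSK cells, the lineage-negative bone marrow cells with Sca-1 and Kit on their surface, among which are stem cells and multipotent progenitors of blood. 4 arrays held RNA of wild-type control mice and 4 that of mice in which Msi2, the gene of the RNA-binding protein Musashi-2, was knocked out conditionally (KO). Neither the Cre driver nor the age, strain or induction of the mice is given in the sources used here. 7 of the 9 genes were measured, among the 10720 genes that could be tested on these arrays. Mx1 was listed at 0 on all 8 arrays, as were 45.8% of all probe sets, and Gbp4 had only a probe set that it shares with Gbp8.

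Interferons induce these proteins through JAK kinases and STAT factors, which act on short promoter elements, the ISRE and the GAS. IRG proteins fall into regulators, among them Irgm1, Irgm2 and Igtp, which sit on the cell's own membranes, and effectors such as Iigp1 and Ifi47, which gather on the vacuoles that enclose intracellular parasites. GBP proteins are larger GTPases that coat such vacuoles and bacteria, and Mx1 is a nuclear inhibitor of influenza virus. In blood stem cells, interferon is known to drive cell division, and mice that lack Irgm1 are known for impaired blood stem cells.

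RefSeq promoter windows (GRCm38.p6, 250 bases before to 50 after an annotated start) were read for 6 of the 9 genes. Windows of Iigp1, Gbp4 and Mx1 were not read, so the motif results leave these genes out. Both strands were searched for the ISRE core GAAANNGAAA and for the GAS TTCNNNGAA. The ISRE core was present in a window of Igtp, Irgm2, Irgm1, Gbp2 and Gbp3, against 3.44% of all 32851 windows of that length. The GAS letters were present in Igtp and Irgm2, against 8.30% of all windows, and Ifi47 held neither. 4 windows are shown, with the matches in capitals. Igtp and Irgm2 are shown because they are neighbours with near-identical windows, and Irgm1 and Gbp3 because each holds overlapping copies of the core.
Igtp, chr11:58199306-58199605, + strand: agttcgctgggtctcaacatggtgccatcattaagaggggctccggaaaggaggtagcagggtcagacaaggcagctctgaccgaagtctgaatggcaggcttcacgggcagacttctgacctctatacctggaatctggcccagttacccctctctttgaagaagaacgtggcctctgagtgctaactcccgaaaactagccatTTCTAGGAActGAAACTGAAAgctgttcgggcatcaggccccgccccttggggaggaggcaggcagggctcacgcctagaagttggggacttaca
Irgm2, chr11:58214727-58215026, + strand: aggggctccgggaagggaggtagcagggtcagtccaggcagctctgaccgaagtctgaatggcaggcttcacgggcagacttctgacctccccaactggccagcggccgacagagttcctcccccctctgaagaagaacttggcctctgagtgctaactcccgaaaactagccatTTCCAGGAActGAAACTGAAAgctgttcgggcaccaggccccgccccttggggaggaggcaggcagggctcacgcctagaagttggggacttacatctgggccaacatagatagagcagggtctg
Irgm1, chr11:48871371-48871670, - strand: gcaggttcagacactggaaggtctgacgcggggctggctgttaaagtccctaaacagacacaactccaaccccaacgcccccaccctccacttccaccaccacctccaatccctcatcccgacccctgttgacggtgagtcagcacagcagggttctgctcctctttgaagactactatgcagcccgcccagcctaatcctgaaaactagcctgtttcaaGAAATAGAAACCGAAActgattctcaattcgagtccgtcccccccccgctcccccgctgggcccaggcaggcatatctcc
Gbp3, chr3:142559794-142560093, + strand: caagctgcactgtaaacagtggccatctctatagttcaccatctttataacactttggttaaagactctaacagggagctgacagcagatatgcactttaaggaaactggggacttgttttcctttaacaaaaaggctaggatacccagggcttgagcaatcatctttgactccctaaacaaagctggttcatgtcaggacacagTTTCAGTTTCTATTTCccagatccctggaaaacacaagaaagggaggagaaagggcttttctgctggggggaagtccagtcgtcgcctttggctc
Aligned with each other, the Igtp and Irgm2 windows were identical at 244 of 265 aligned bases (92.1%). Counted from the annotated start, the core GAAACTGAAA lay at -34 to -25 in Igtp and at -64 to -55 in Irgm2, each next to a GAS match. In Irgm1 the overlapping copies were GAAATAGAAA and GAAACCGAAA, and in Gbp3 they lay on the opposite strand. The other Gbp3 window, of a second annotated start, held neither motif. A match is a run of letters and not a measured binding site.

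Some facts of the series touch every value below. On 4 bright probe sets of Msi2 itself the signal on arrays KO 1, KO 2, KO 3 and KO 4 was 72.6%, 63.4%, 15.1% and 40.5% of that in controls, which themselves ran from 91.1% to 111% of their mean. The log2 signal of Xist, which is transcribed from the inactive X chromosome in females, was 3.83 to 4.19 on 3 arrays (control 1, KO 1 and KO 2) and 11.21 to 11.82 on the remaining 5. Eif2s3y, a gene of the Y chromosome, read 8.05 to 8.14 on those 3 arrays and 3.36 to 3.62 on the remaining 5. By these 2 genes the 3 arrays were of males and the 5 of females, so sex was not balanced between the groups. KO 3 had the lowest mean correlation with the other arrays (0.957, others 0.963 to 0.974). Of the LSK and progenitor markers, 8 of 9 were measured, and their summed signal (the sum of unlogged signals) was 8007 to 8615 on the controls and 4965 to 8923 on the KO arrays, lowest on KO 3. Of the defining lineage markers, Cd3e, Cd3d, Cd3g, Cd4 and Cd8a of T cells and Cd79a, Ms4a1 and Pax5 of B cells were listed at 0, while Nkg7 of NK cells and Vpreb1 and Cd79b of B cells were measured.

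On average 6 of the 7 measured GTPases were lower in KO, where 49.6% of all genes tested were, and the 7 differences had a median of -0.42 in log2 signal against 0.00 over all genes. Of their 9 measured probe sets 8 were lower, where 49.9% of all probe sets were. Nothing is read from these counts, since this contrast chose the genes. Igtp, Ifi47 and Gbp3 lay below their control mean on every KO array. Gbp2 did too, but on KO 1 and KO 2 only by 0.03 and 0.07. Irgm2 and Iigp1 were lower on KO 3 and KO 4 only, and Irgm1 did not separate. In bulk RNA of sorted cells, fewer cells that express a gene and less RNA per cell cannot be told apart. No gene of the whole table passed the adjusted threshold of 0.05 in limma (0 of 10720, with 1222, or 11.4%, at an unadjusted p under 0.05), nor did any probe set (0 of 24404, with 2371, or 9.72%, unadjusted).

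Among the regulators, Igtp, a GTPase of the endoplasmic reticulum, showed the widest gap between the groups relative to its spread. Its log2 signal (probe set 1417141_at) was 8.27, 8.09, 8.44 and 7.93 on the controls and 7.57, 7.48, 7.34 and 7.33 on KO 1 to KO 4. All 4 KO arrays lay below all 4 controls, which holds for 3.48% of all genes tested, and Igtp was the only one of the 7 for which it did. The means were 8.18 ± 0.22 and 7.43 ± 0.11 (SD, n = 4 each), a difference of -0.76 ± 0.15 (SE), or 59.2% of the control signal. Leaving out each array in turn gave -0.84 to -0.67.

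Irgm2, the neighbour of Igtp on the chromosome and a regulator of Golgi membranes, did not share that split. Its log2 signal (1417793_at) was 8.23, 8.25, 7.92 and 7.14 on the controls and 8.58, 8.03, 6.55 and 7.32 on the KO arrays. KO 1 was the highest of all 8 arrays and KO 3 the lowest, so the KO values enclosed the controls. The difference was -0.26 ± 0.43 (SE), and it turned to 0.10 without KO 3 and reached -0.58 without KO 1.

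Irgm1, the regulator known from blood stem cells, had nearly the same mean in the 2 groups. The log2 signals (1418825_at) were 6.27, 6.50, 6.67 and 6.70 on the controls and 6.89, 6.39, 6.42 and 6.53 on the KO arrays. The means were 6.53 ± 0.20 and 6.56 ± 0.23 (SD, n = 4 each), a difference of 0.02 ± 0.16 (SE). Its sign was not stable, with -0.09 without KO 1 and 0.08 without KO 2.

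Of the effectors, Ifi47 was below its control mean on every KO array. Its log2 signal (1417292_at) was 9.36, 9.61, 9.46 and 9.24 on the controls and 8.63, 9.25, 9.0 and 9.05 on the KO arrays. 3 of the 4 KO arrays lay below all controls, and KO 2 lay just above control 4. The difference was -0.44 ± 0.16 (SE), or 73.8% of the control signal, and -0.53 to -0.32 when each array was left out.

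Iigp1, the effector best known from Toxoplasma vacuoles, varied more within each group than between them. The brighter probe set (1419043_a_at) gave log2 signals of 5.60, 6.55, 7.39 and 5.23 on the controls and 6.70, 6.23, 4.64 and 5.66 on the KO arrays. The difference of -0.39 ± 0.54 (SE) went to 0.00 without KO 3 and to 0.01 without control 3. The dimmer probe set (1419042_at) read 4.64 to 5.13 on the controls and 4.95, 4.49, 3.49 and 4.44 on the KO arrays, with 3 of 4 KO arrays below all controls and a difference of -0.51. On both probe sets KO 3 was the lowest of the 8 arrays.

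The GBP genes differed from each other in which arrays were low. Gbp2 (1418240_at) read 7.96, 7.33, 7.66 and 7.54 on the controls and 7.60, 7.56, 6.57 and 7.10 on the KO arrays, so only KO 3 and KO 4 left the control range. Its difference was -0.42 ± 0.25 (SE), and -0.21 without KO 3. The second Gbp2 probe set (1435906_x_at) read 6.06 to 7.17 on the controls and 6.45, 6.91, 5.49 and 5.89 on the KO arrays, a difference of -0.33, and again only KO 3 and KO 4 were below the controls.

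Gbp3 (1418392_a_at) read 7.33, 8.54, 8.72 and 8.35 on the controls and 7.77, 7.49, 7.56 and 7.71 on the KO arrays. All KO arrays lay below controls 2 to 4 and above control 1, which was the lowest of the 8. The difference was -0.60 ± 0.28 (SE), or 65.9% of the control signal, and -0.91 without control 1. The probe set that Gbp4 shares with Gbp8 (1421104_at) went the other way, at 5.99 to 6.90 on the controls and 6.45 to 7.13 on the KO arrays (difference 0.17), and the 2 genes cannot be told apart on it.

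**Figure D1:**
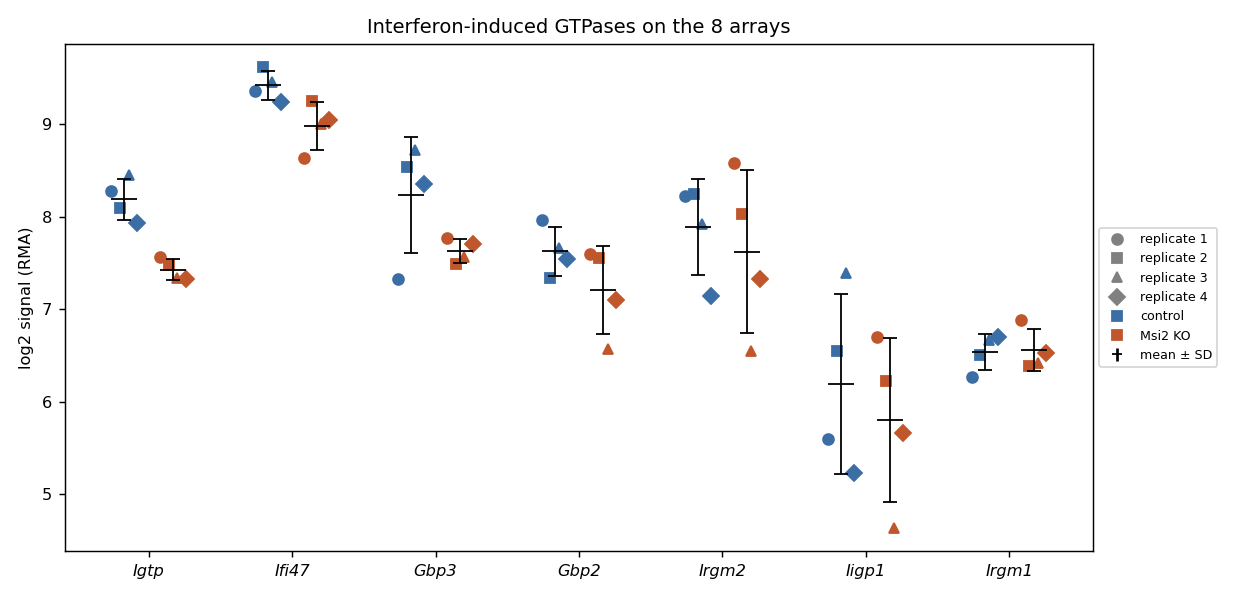
Log2 signal of the 7 measured GTPases on each array, with controls in blue, Msi2 KO in orange, a marker shape per replicate number, and bars for the mean and SD (n = 4 each). Only for Igtp do all 4 KO arrays (7.33 to 7.57) lie below all controls (7.93 to 8.44), and the lowest points of Irgm2, Iigp1 and Gbp2 are all KO 3.

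Read by array, the mean of the 7 genes stood at -0.05, -0.24, -0.86 and -0.48 from the mean of the controls on KO 1 through KO 4, and between -0.28 and 0.31 on the controls. The groups thus overlapped for the mean: KO 1 and KO 2 lay above control 4. KO 1 had 2 genes below every control, KO 2 had 1, KO 3 had 5 and KO 4 had 3. The 4 KO arrays thus stood in the same order by the mean of these genes as by their remaining Msi2 signal, from KO 3 (lowest in both) through KO 4 and KO 2 to KO 1. The summed B cell and dendritic cell markers, given below, stood in that order too, and the summed erythroid markers in the reverse one. For the erythroid markers the sums were 11726, 5650, 4662 and 3336 on KO 3, KO 4, KO 2 and KO 1. The sums of the other marker lists did not follow the order. All of these are orders of 4 arrays, noticed in the data and not tested. Of the GTPases taken singly, only Iigp1, Irgm2 and Gbp2 followed the order of the Msi2 signal. Ifi47 was lowest on KO 1 (-0.79), Gbp3 and Irgm1 on KO 2 (-0.75 and -0.14) and Igtp on KO 4 (-0.86). Without KO 3, the median of the 7 differences was -0.21, with 4 of 7 genes lower.

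**Figure D2:**
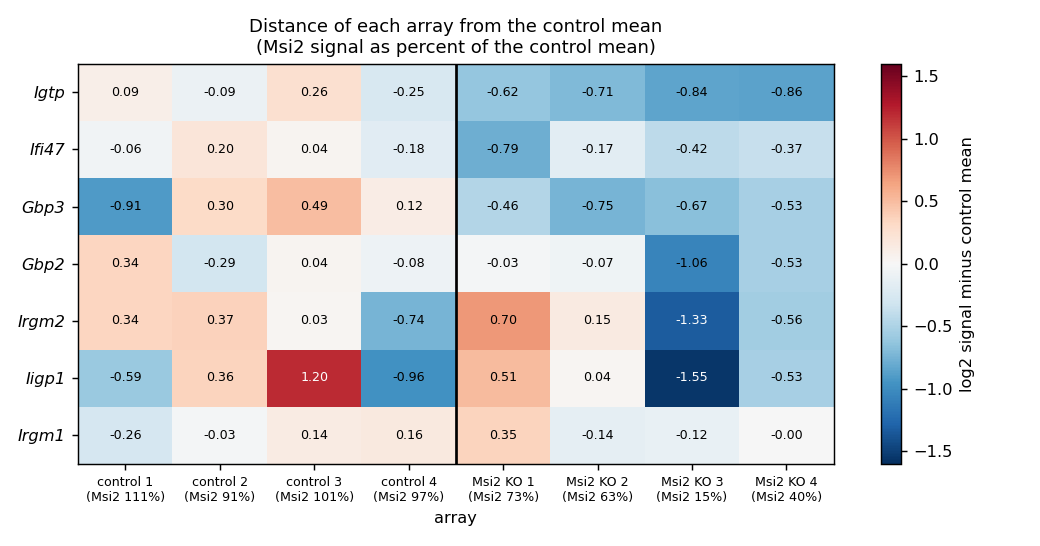
Log2 signal of each GTPase on each array minus its control mean, as a colour and a number, with the Msi2 signal of the array in percent of the control mean. Igtp, Ifi47 and Gbp3 are negative on all 4 KO arrays, while Irgm2 and Iigp1 are positive on KO 1 and most negative on KO 3 (-1.33 and -1.55).

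For 4 of the 7 genes the sign of the difference was not the same on the arrays with high and with low Xist, which was not tested. On the high-Xist arrays (2 KO, 3 control) all 7 were lower in KO, from -0.15 for Irgm1 to -1.24 for Iigp1. On the low-Xist arrays (2 KO against control 1 alone) Igtp (-0.75), Ifi47 (-0.42) and Gbp2 (-0.39) were lower, but Iigp1 (0.86), Irgm1 (0.37), Gbp3 (0.30) and Irgm2 (0.08) were higher. Igtp and Ifi47 thus had nearly the same difference in both (-0.82 and -0.42 with high Xist). The high-Xist KO arrays are also those with the least Msi2 signal, so these features of the arrays cannot be told apart, and a single control stands behind every low-Xist difference.

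**Figure D3:**
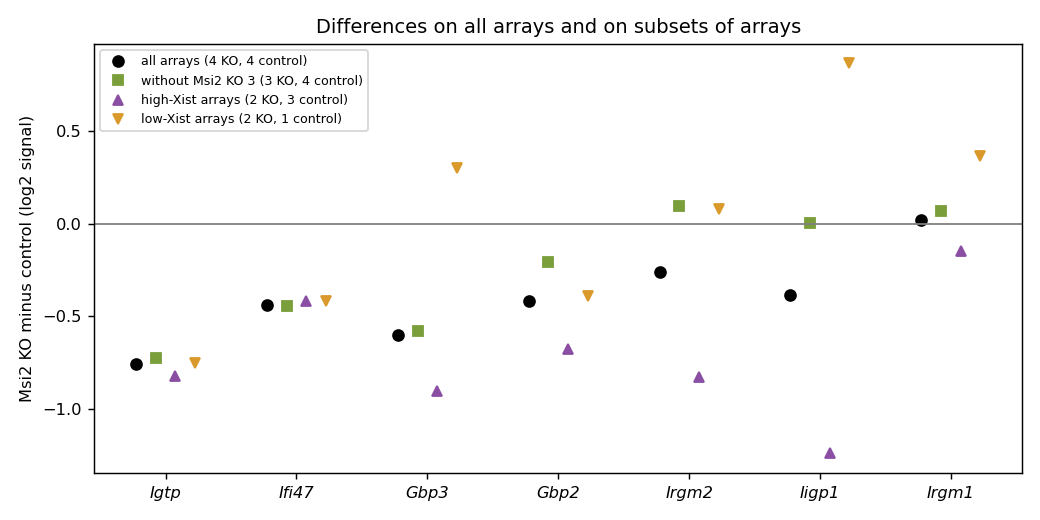
Difference of Msi2 KO minus control in log2 signal for each GTPase, on all arrays, without KO 3, on the high-Xist arrays and on the low-Xist arrays. Igtp stays between -0.82 and -0.73 in all 4, and Iigp1 spans -1.24 to 0.86.

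Within the groups the genes did not form 1 block. After each group's mean was taken off, Pearson's r over the 8 arrays ran from -0.65 (Irgm1 with Ifi47) to 0.78 (Irgm2 with Gbp2) over the 21 pairs, with a median of 0.15. Among Irgm2, Iigp1, Gbp2 and Igtp r was 0.50 to 0.78, and Irgm1 had 0.68 with Gbp3. These were not separate blocks, since Iigp1 also had 0.50 with Gbp3 and 0.46 with Irgm1. The near-identical promoter windows of Igtp and Irgm2 stood beside an r of 0.62, and the 2 probe sets of Gbp2 and of Iigp1 gave 0.91 and 0.76. All pairs share the same 8 hybridisations, and these values are descriptions. By the same measure, the genes outside the set most like the mean of the 7 were Rilpl1 (r 0.99), Zfp58 (0.98), Hmbox1 (0.97), Ecscr (0.96) and Rgl2 (0.96), out of 10713 genes ranked over 8 arrays. Of these, Zfp58 and Rgl2 had a higher mean in KO (0.61 and 0.34), and Rilpl1, Hmbox1 and Ecscr a lower one (-0.33, -0.24 and -0.45). The measure takes off the group means, so it says nothing of differences between the groups.

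Close relatives of the set gave further values. The probe set shared by the IRG genes Tgtp1 and Tgtp2 (1449009_at) read 10.01, 9.42, 9.75 and 9.39 on the controls and 9.03, 9.23, 8.35 and 8.70 on the KO arrays, all below the controls. The difference was -0.82 ± 0.22 (SE), with an adjusted p of 0.372 in limma over all probe sets, and -0.66 without KO 3. The probe set that the giant GTPase gene Gvin1 shares with Gm4070 (1429184_at) also had all KO arrays below the controls, at 9.66 ± 0.26 and 8.61 ± 0.57 (SD, n = 4 each). Its difference was -1.06 ± 0.28 (SE; limma adjusted p 0.357), and -0.84 without KO 3. Among probe sets, 2.96% had all KO arrays below all controls.

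Of 19 other GTPases of these families, 4 were measured on a probe set of their own. In limma 0 passed the threshold, as 0 of all 10720 genes did. Gbp2b stood at 6.47 ± 1.01 and 5.10 ± 1.34, and Gbp6 at 5.19 ± 0.69 and 4.44 ± 0.55 (SD, n = 4 each), with an adjusted p of 0.483 for both. Gbp7 differed by -0.30 ± 0.16 and the IRG relative Irgq by 0.40 ± 0.21 (SE; adjusted p 0.510 for both). The groups overlapped for all 4 genes.

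The signalling genes upstream of the set come next. None of them passed limma's threshold, but neither did any other gene of the whole table (0 of 10720). Of the interferon receptor chains and ligands, 5 of 10 were measured. Ifnar1, a chain of the type I receptor, read 8.06, 8.17, 7.88 and 8.27 on the controls and 7.69, 7.91, 7.57 and 7.61 on the KO arrays, a difference of -0.40 ± 0.14 (SE; limma adjusted p 0.370). Ifnar2, the other type I chain, differed by 0.01, and the interferon-gamma receptor chains Ifngr1 and Ifngr2 by 0.29 and 0.05. Il10rb, a chain of the interferon-lambda receptor, differed by -0.36. Ifnb1, Ifna4 and Ifng, which encode ligands, were listed at 0.

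Of the JAK-STAT transducers 5 of 6 were measured: the kinases Jak1 (0.06), Jak2 (-0.11) and Tyk2 (0.27) and the factors Stat2 (-0.37) and Stat3 (-0.15), with limma adjusted p from 0.711 to 0.936. Of the IRF factors 7 of 10 were measured, with a median difference of 0.05. Irf5 (0.20; adjusted p 0.681) and Irf3 (-0.28; adjusted p 0.752) had the smallest p, and Irf1, which acts on the ISRE, read 8.94 ± 0.13 and 8.67 ± 0.62 (SD, n = 4 each). All 10 inhibitors of the pathway were measured, with a median of -0.07, and Pias4 (0.27) and Usp18 (0.37) had the smallest p (adjusted p 0.526 and 0.599). In these 3 lists no gene had KO arrays that all lay outside the control range on 1 side.

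Among other genes induced by the same pathway, more had a lower than a higher mean in KO. Of 46 other interferon-induced genes 39 were measured, 26 of them lower in KO (49.6% of all genes tested were) and 13 higher, with a median of -0.27. In limma 0 of the 39 passed the threshold, as 0 of all 10720 genes did. At an unadjusted p under 0.05 there were 11 of the 39, and 11.4% of all genes. All 4 KO arrays were below the controls for 5 of the 39, Trim21, Ube2l6, Herc6, Eif2ak2 and Parp9, against 3.48% of all genes. Trim21, a cytosolic antibody receptor and ubiquitin ligase, read 9.06, 8.81, 8.88 and 8.67 on the controls and 7.82, 8.14, 8.21 and 8.25 on the KO arrays, a difference of -0.75 ± 0.15 (SE; adjusted p 0.230). Ube2l6, the enzyme that conjugates ISG15, differed by -0.67 ± 0.17 (SE; adjusted p 0.275). The median of this list without KO 3 was -0.05.

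Of the genes of MHC class I presentation 12 of 13 were measured, 10 lower (49.6% of all genes tested were) and 2 higher, with a median of -0.15. Psmb9, a subunit of the immunoproteasome, differed by -0.56 ± 0.19, and Erap1, which trims peptides, by -0.51 ± 0.20 (SE; limma adjusted p 0.360 and 0.408). All KO arrays were below the controls for 3 of the 12, Psmb9, Psmb8 and Psme1, against 3.48% of all genes. The autophagy conjugation proteins, which help direct IRG and GBP proteins to vacuoles, were all measured (11 of 11), 7 lower and 4 higher, with a median of -0.12, and Atg10 was the 1 gene with all KO arrays below the controls. Atg10 differed by -0.62 ± 0.18 and Atg16l1 by 0.41 ± 0.18 (SE; adjusted p 0.295 and 0.436).

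Over these 7 pathway lists and the family list, 60 of 93 genes were lower in KO (49.6% of all genes tested were) and 33 higher, with a median of -0.14 and of -0.05 without KO 3. In limma 0 of the 93 passed (adjusted p 0.230 to 0.993), as 0 of all 10720 genes did. An unadjusted p under 0.05 was found for 16 (11.4% of all genes), 14 lower and 2 higher. All KO arrays were below the controls for 9 of the 93 (3.48% of all genes) and above them for 0 (3.63% of all genes).

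**Figure D4:**
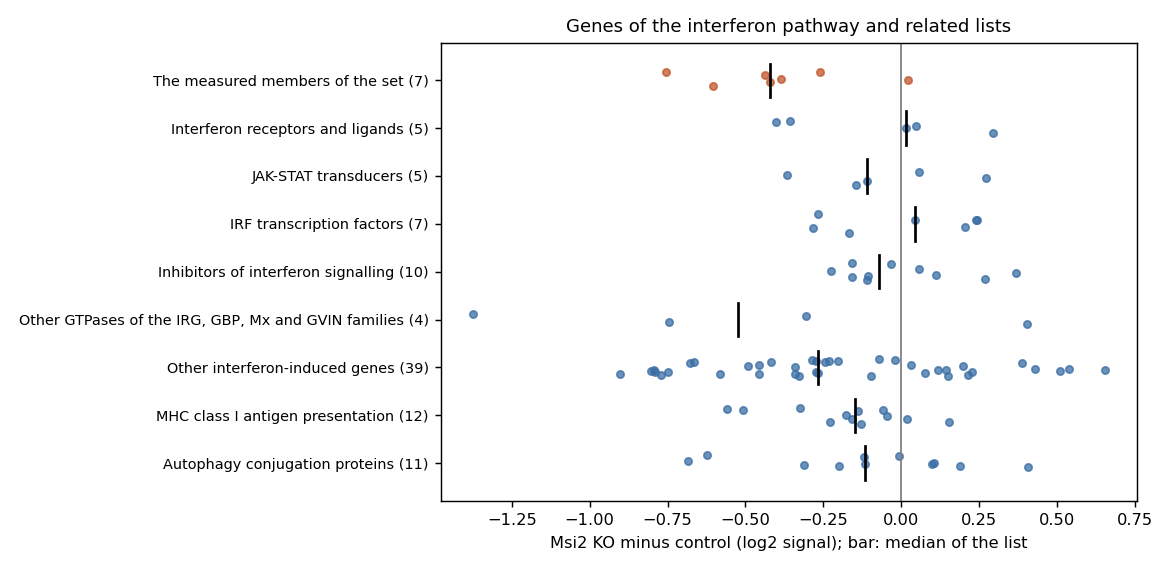
Difference of Msi2 KO minus control in log2 signal for each measured gene, by list, with the number of genes in brackets and a bar at the median of the list. The 7 measured GTPases have a median of -0.42, the 39 other interferon-induced genes one of -0.27, and the receptors and IRF factors lie around 0.

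Some marker lists of other cells also differed between the arrays, and whether LSK cells express these genes themselves was not tested. The summed signal of the endothelial and stromal markers (6 of 11 measured) was 712 to 900.3 on the controls and 285 to 597 on the KO arrays, lowest on KO 3. Of the 6, 5 had a lower mean in KO: Tek, Esam, Tie1, Pecam1 and Emcn. Cdh5 had a higher one (0.23), at low means of 3.38 in controls and 3.61 in KO. The lowest signal above 0 on the arrays was 2.79. Kdr, Col1a1, Col3a1, Cxcl12 and Lepr were listed at 0. The B cell markers (2 of 8, Vpreb1 and Cd79b) summed to 328 to 755 on the controls and to 210.4 to 409 on the KO arrays, lowest on KO 3. The erythroid markers (8 of 12) summed to 1738 to 4448 on the controls and to 3336 to 11726 on the KO arrays, highest on KO 3. Hba-a1 and Alas2 of that list were at 0. Of 15 macrophage and monocyte markers 8 were measured, 7 with a higher mean in KO, among them Cd68 (1.09), while Lyz2 was lower (-0.79). Cd14, Marco, C1qa, C1qc, Itgam and Fcgr1 were listed at 0. The 8 measured summed to 1808 to 2910 on the controls, to 1579 on KO 3 and to 3314 to 3429 on the other KO arrays. The dendritic cell markers (7 of 10) were likewise lowest on KO 3 (1479, against 2847 to 4008 elsewhere), with Siglech, Ly6d and Itgax listed at 0. Of that list, Flt3 is also a marker of LSK cells and Bst2 is itself induced by interferon. The neutrophil markers (6 of 11) overlapped, at 8059 to 13632 on the controls and 10501 to 14529 on the KO arrays, with Ltf, Camp, Mmp8 and Lcn2 listed at 0. Of 10 T and NK cell markers Nkg7 alone was measured, at 710 to 865 and 778 to 1296. The part of these cells in the GTPase signals was not tested.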

How the data were processed

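RNA of LSK cells from 4 control and 4 Msi2 KO mice was hybridised to Affymetrix mouse arrays. For each probe set the authors deposited a log2 signal that had been normalized with RMA, per the submitters' processing notes (version not given in the sources used here). An unstated step left 20664 of 45101 probe sets at 0 on all arrays, and these were left out. The number of arrays limits the precision, and differences between the groups are read within a probe set. RMA signals of different probe sets were compared only to pick brighter probe sets and genes. They were added only in the marker sums, in which the brightest genes weigh most.

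Probe sets were named from the platform annotation, updated through gene IDs and a RefSeq table of GRCm38.p6, and 34958 carried 1 gene. All probe sets annotated to a member alone were used, and the brightest stood for the gene. Genes (10720) and probe sets (24404) were fitted with limma 3.58.1 in R 4.3.3 (lmFit, eBayes, two-sided), with Benjamini-Hochberg adjustment over the whole table. SE is limma's moderated value. Promoter windows were aligned end to end with free end gaps, and identity counts aligned bases. On simulated data of 10720 genes for this comparison limma recovered 52.0% of 200 genes changed by 1 in log2 and 93.5% of those changed by 2. There were 6 and 11 false calls. The simulated noise was independent between genes and arrays. No change under 1 was simulated, so these figures do not cover differences as small as those of the GTPases.

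The members, the gene lists, the tests and the rule for naming genes were chosen with earlier results of these data known. The rule names all members, the 2 genes of each list with the smallest p, any measured gene of the receptor, JAK-STAT and other GTPase lists, and the 5 genes most like the members within the groups. Genes with non-overlapping groups and Irf1 were named after their values were seen.

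In the main fit the arrays were not paired by replicate number. The correlations of the 4 same-numbered pairs, given below, cannot settle whether the numbers mark a pairing.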

Additional observations from a re-analysis of the deposited data

Results flagged for a closer look

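Among the genes named above, 82 groups of 4 arrays were searched for an array far from the other 3, by its gap to the nearest array over the range of the group, and 5 groups passed Dixon's critical value. Chance flags about 1 in 20 groups. Of the 14 groups of the measured GTPases 0 passed. Gbp6 was highest on control 2 (gap over range 0.888; 6.22 against 4.76 to 4.93). Ube2l6 was lowest on KO 3 (0.983; 5.38 against 5.60 on each of the others). Herc6 was highest on control 1 (0.834; 7.38 against 6.07 to 6.28). Psmb8 was highest on control 1 (0.844), and Jak2 was lowest on KO 4 (0.904).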

How the results depend on the processing

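The median difference of the measured GTPases (-0.42) was lower than 0 under every alternative but 1. It was -0.82 on the high-Xist arrays and turned to 0.078 on the low-Xist arrays, an alternative added after the data were seen, which has 1 control. When each array was left out it ran from -0.58 to -0.21. The number of GTPases with all KO arrays below all controls (1) was 2 after median centring and 4 on the high-Xist arrays, and 1 to 2 when each array was left out. Fewer arrays make such a split easier: on the high-Xist arrays 15.7% of all genes show it. Igtp, Ifi47, Gbp2 and Gbp3 were lower under every alternative except Gbp3 on the low-Xist arrays (0.30). Gbp2, Iigp1 and Irgm1 drop out of the fit on the brighter genes alone. Irgm2 ran from -0.58 to 0.095 when each array was left out, above 0 without KO 3 only, and turned to 0.078 on the low-Xist arrays. Iigp1 ran from -0.71 to 0.013 when each array was left out, with 0.013 without control 3 and 0.0032 without KO 3, and turned to 0.86 on the low-Xist arrays. Irgm1 turned to -0.014 with array weights and to -0.15 on the high-Xist arrays, and ran from -0.089 to 0.076 when each array was left out, below 0 without control 1 or KO 1.

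In limma, 5 genes passed with Xist as a covariate, and 0 to 1 when each array was left out. 1 probe set passed with repeated quantile normalization, with array weights, without _s_at and _x_at probe sets or with dim probe sets left out, 2 with an intensity trend and robust prior, and 0 to 1 when each array was left out. None of these genes is a member of the set, and under the other alternatives run 0 passed. With the replicate number as a block 0 genes and 0 probe sets passed (1183 and 2333 at an unadjusted p under 0.05), and the median difference of the GTPases was -0.42. Same-numbered arrays did not deviate together (r 0.14, -0.17, 0.08 and -0.02), and not every array correlated best with its own number.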
